A study of Mus musculus with 32 samples.

Results

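The conversion of mouse embryonic stem cells (ESC) to neural cultures was followed in clones with an MD tag on Smarce1. The product of this gene, BAF57, belongs to the SWI/SNF (BAF) complexes, which move nucleosomes. The members were chosen by label: MD clones 09 and 30 only, with 6 ESC libraries of the first library run and 4 neural libraries. They make up 10 of the 32 libraries of the series. All cells are of strain 129S5/SvEvBrd. The 6 MD ESC libraries (genotype Smarce1-MD, clones 09 and 30, 3 libraries each) were grown with serum and LIF on gelatin. The 4 MD neural libraries carry the same clone labels, 2 libraries each, and come from ESC kept for 6 days in a neural medium, which the labels spell RHA-B in the protocol and RHB-A in the treatment field. For comparison, 10 libraries of genotype Smarce1-MD(R42A) were taken from the same runs: clones A04 and A10, 6 as ESC and 4 as neural cultures. The labels do not spell out MD; it is taken for a mitotic degron, which gets its carrier protein destroyed late in mitosis, with R42A as a change that disables it. Every group thus carries a tag on Smarce1, and no untagged cells were used here. Each group rests on 2 clones.

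ESC of the mouse divide fast and keep open the choice of all lineages through a circuit of OCT4 (Pou5f1), SOX2 and NANOG, held up by LIF acting through STAT3. When LIF and serum are taken away and FGF signalling proceeds, cells pass a formative state and, where BMP and Nodal signals are low, become neuroectoderm. Neuroectoderm forms progenitors kept cycling by SOX factors and Notch. Cells that escape Notch switch on proneural bHLH factors, leave the cycle and express the neuronal cytoskeleton, then synapse genes. On the way SWI/SNF complexes exchange subunits: BAF53A (Actl6a), BAF45A (Phf10) and SS18 are replaced by BAF53B (Actl6b), BAF45B and BAF45C (Dpf1, Dpf3) and CREST (Ss18l1) in neurons.

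Values are CPM, counts scaled to a common library total and corrected by the trimmed mean of M-values (TMM). Total counts ran from 44324124 to 87242391 (median 70381324) in the MD ESC libraries and from 44426445 to 62803915 (median 61548569) in the MD neural libraries. Mitochondrially encoded genes took 2.18% to 2.78% of counts in the ESC libraries and 1.79% to 1.85% in the neural ones. Cytosolic ribosomal protein genes took 4.79% to 5.8% and 3.9% to 4.43%. The stages stood far apart. Between a neural and an ESC library the median absolute log2 ratio over genes was 0.815 to 0.908, against 0.0821 to 0.255 between ESC libraries and 0.0457 to 0.0895 between neural libraries. Neural libraries of different clone labels differed by 0.0625 to 0.0757, inside the range for the same label, and ESC libraries of different clones differed by 0.0821 to 0.231 against 0.108 to 0.255 within a clone, so this measure separates the clones at neither stage. All neural libraries belong to a library run of their own, so stage and run cannot be told apart in any comparison of stages. In bulk RNA, fewer cells of a type and less RNA per cell cannot be told apart either. The labels do not say whether libraries of a clone came from separate cultures, so p-values measure only the spread between these samples, which may be technical.

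Smarce1 itself was measured first. Its RNA (chr11:99209047-99231017, GRCm38) ran from 113 to 121 CPM (median 117) in the 6 ESC libraries. The neural libraries, always given in the order of the 2 of label 09 and the 2 of label 30, held 299.9, 295, 284 and 293 CPM. The stages did not overlap, and Smarce1 RNA rose in the neural cultures (log2 change 1.31 ± 0.10, adjusted p = 1.12e-05; edgeR quasi-likelihood test, n = 2 clone sums per group). The R42A clones went from 119.6 to 231 CPM, and the difference between the genotypes was not called (log2 0.36 ± 0.13, adjusted p = 0.0995). On the reading above MD acts on the protein, so RNA levels do not check these labels.

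Of 23844 genes tested, 6785 were higher in the MD neural cultures (28.5%) and 6479 were lower (27.2%). A gene is called, and said to have risen or fallen, where its Benjamini-Hochberg adjusted p in edgeR was under 0.05 and its change at least 2-fold. The value after ± is the size of the log2 change divided by the square root of the F statistic, an approximate standard error. For genes with few counts at a stage it can understate the counting error. The change was at least 10-fold for 2336 of the higher and 2663 of the lower genes. With the adjusted p alone, 19392 genes (81.3%) passed. The counts of each list below have to be read against the 28.5% higher and 27.2% lower among all genes. Counts near these shares are no trait of a list. The median log2 change over all genes was -0.02. Scaling by total counts in place of TMM moved it to 0.16 and the higher genes from 51.2% to 56.5% of those called. A switch from off to on, under 0.1 CPM in every ESC library and over 5 CPM in every neural library, was seen for 86 genes, 79 of them protein coding. The opposite switch was seen for 48 genes. Of the proneural list 7 members switched on, and of the 2-cell-like list 6 switched off.

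**Figure D1:**
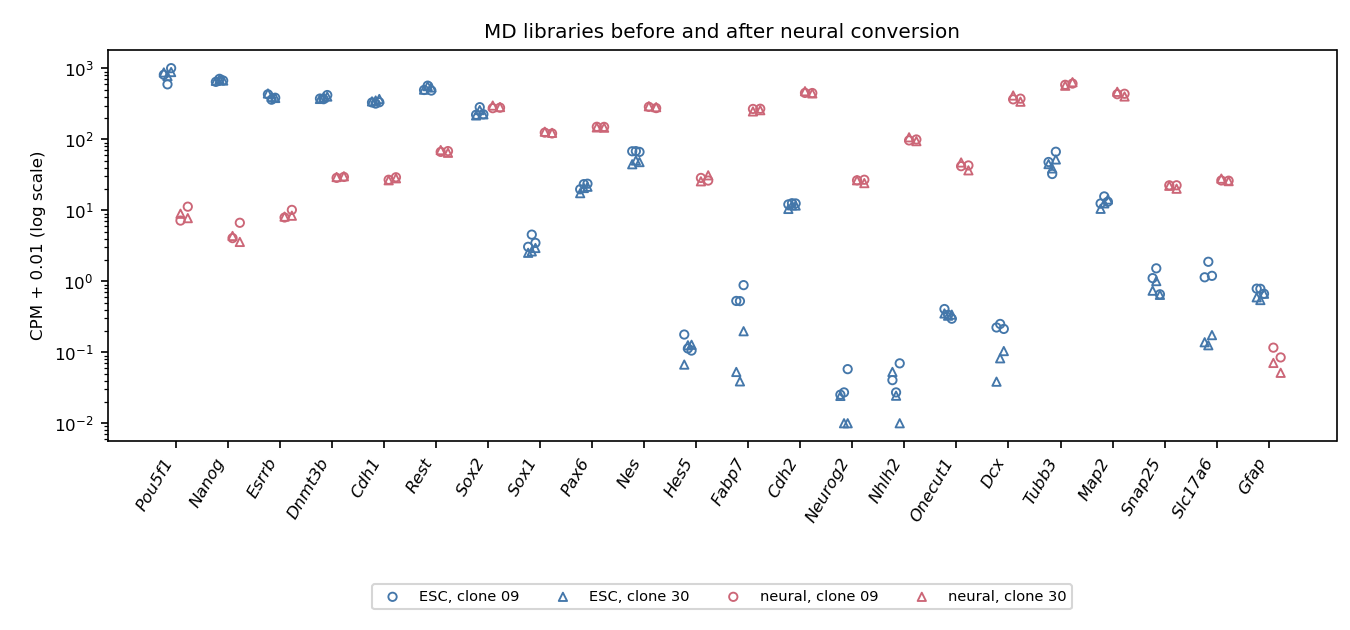
Level of 22 panel genes (CPM plus 0.01, log axis) in every MD library: blue points are the 6 ESC libraries and red points the 4 neural libraries, circles clone 09 and triangles clone 30. The stages overlap only for Sox2, and in ESC clone 09 lies above clone 30 without overlap for several genes, among them Fabp7, Slc17a6, Dcx and Nes.

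The pluripotency circuit fell. In the list of core pluripotency genes 0 of 26 rose and 25 fell, with a median log2 change of -5.75. Pou5f1, which encodes OCT4, ran from 596 to 1008 CPM (median 845) in ESC libraries and was at 7.16, 11.3, 8.95 and 7.76 CPM in the neural libraries (log2 change -6.58 ± 0.08, adjusted p = 2.02e-08). Nanog, the homeobox factor of naive cells, ran from 646 to 713 CPM (median 674) and fell to 4.05, 6.67, 4.34 and 3.58 CPM (log2 change -7.19 ± 0.16, adjusted p = 5.32e-08). Zfp42 (REX1), a marker of the naive state, ran from 517 to 599.9 CPM (median 579) and fell to 3.52, 5.18, 3.93 and 2.73 CPM (log2 change -7.22 ± 0.21, adjusted p = 1.53e-07). These genes were low in all 4 neural libraries without reaching 0, and no ESC library came near them. Among the largest fitted falls of the list were Dppa2 (240.0 to 0.668 CPM, log2 -8.48 ± 0.37), Fgf4 (173 to 0.68 CPM, -7.99 ± 0.12) and Tdgf1, a Nodal co-receptor (957 to 4.09 CPM, -7.86 ± 0.17). Klf4 fell less: it ran from 51.9 to 56.9 CPM (median 53) in ESC and was at 7.21, 9.19, 7.47 and 7.96 CPM after conversion (log2 change -2.77 ± 0.12, adjusted p = 7.41e-07). Sox2, shared by ESC and neural progenitors, was the exception of the list. It ran from 218 to 284 CPM (median 225) in ESC and was at 275, 279.7, 299 and 285 CPM in the neural libraries, with ranges that overlap and a log2 change of 0.25 ± 0.05 that did not reach 2-fold. Against the ESC of the second library run its log2 change was -0.34. Those ESC are of other MD clones, 45 and 47, so clone and run change together in that comparison.

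Genes of the LIF pathway went down with the circuit: of 11 tested 7 fell and 1 rose, with falls in Lifr, the LIF receptor (137 to 19 CPM, log2 -2.86 ± 0.06), and in the feedback inhibitor Socs3 (140.0 to 18.2 CPM, -2.94 ± 0.15). The formative and primed list was split, with 6 of 16 higher and 6 lower. Dnmt3b, a de novo DNA methyltransferase of formative cells, ran from 369 to 421 CPM (median 383) in ESC and fell to 28.7, 29.5, 29.5 and 30.2 CPM (log2 change -3.74 ± 0.05, adjusted p = 2.02e-08). Fgf5, the classic formative marker, was low at both stages: 1.04 to 3.23 CPM (median 2.06) in ESC libraries, with clone 09 above clone 30, and 0.394, 0.552, 0.516 and 0.207 CPM in the neural libraries (log2 change -2.32 ± 0.48, adjusted p = 0.00297). That call was lost without R42A clone A04 or A10 in the fit, and the log2 change was -1.59 without clone 09. Genes of the 2-cell-like state, which rare ESC enter for a time, fell without exception among 12 tested (median log2 -9.92, and -9.41 with genes at 0 set to their bound). The summed level of the list went from 132 to 268 CPM to 0.0827 to 0.284 CPM. Zscan4d, a member of the Zscan4 cluster, went from 35 to 0.0163 CPM. Reads of these near-identical copies can be shared among them, so single copies are uncertain. Of 15 germline genes 14 fell, among them Stra8, a gene of meiotic entry (16.9 to 0.00816 CPM; 2 counts in all neural libraries), and Hormad1 (40.0 to 0.128 CPM, log2 -8.26 ± 0.17).

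Adhesion genes changed hands. Cdh1 (E-cadherin) ran from 319 to 371 CPM (median 338) in ESC and fell to 27, 29.2, 26.5 and 28.3 CPM (log2 change -3.64 ± 0.11, adjusted p = 2.06e-07). Cdh2 (N-cadherin), which neuroepithelium uses, ran from 10.5 to 12.6 CPM (median 11.9) and rose to 451, 449.8, 477 and 444 CPM (log2 change 5.26 ± 0.09, adjusted p = 2.98e-08). The cadherin list held 7 of 14 genes that rose and 4 that fell. Epithelial genes of the surface ectoderm list fell for 9 of 14 and rose for 1: Epcam went from 114 to 7.02 CPM and the splicing factor gene Esrp1 from 76.8 to 4.02 CPM (log2 -4.25 ± 0.22). Krt8, a keratin of simple epithelium, ran from 19.3 to 34.1 CPM (median 30.6) in ESC and was at 35.4, 40.3, 33.6 and 37.5 CPM in neural libraries, and was not called (log2 change 0.30 ± 0.36, adjusted p = 0.459).

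Progenitor genes rose. In the neural progenitor list 23 of 25 rose and 1 fell (median log2 4.94), and the summed level of the list went from 709.7 to 839.6 CPM to 5510 to 5649 CPM. Sox1, the earliest specific factor of neuroectoderm, ran from 2.51 to 4.54 CPM (median 2.99) in ESC and stood at 125, 121, 128 and 123 CPM (log2 change 5.29 ± 0.37, adjusted p = 9.11e-06). Pax6, a factor of dorsal forebrain and eye progenitors, ran from 17.5 to 23.7 CPM (median 21.1) and stood at 150.5, 150.0, 147 and 146 CPM (log2 change 2.81 ± 0.38, adjusted p = 0.000311). Nes, the intermediate filament nestin, was already present in ESC at 44.6 to 68.3 CPM (median 58.5) and rose to 287, 276, 293 and 285 CPM (log2 change 2.30 ± 0.16, adjusted p = 8.59e-06). In ESC the clones did not overlap for Nes, clone 09 being higher, while their neural libraries did overlap. Fabp7, the lipid-binding protein of radial glia, ran from 0.0289 to 0.873 CPM (median 0.352) and reached 268, 270.1, 248 and 258 CPM (log2 change 9.41 ± 0.56, adjusted p = 3.71e-06). The change was 11.75 without clone 09, whose ESC hold more Fabp7, and 8.66 without clone 30. Among the largest fitted rises of the list were Zic1 (0.0362 to 240.1 CPM, log2 12.66 ± 0.14) and Pax3 (0.0275 to 74.5 CPM, 11.31 ± 0.26), both factors of the dorsal neural tube.

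Notch genes were called throughout: of 19 tested, 18 rose and 1 fell, the latter being Rbpj, the DNA-binding partner of Notch (767 to 172 CPM, log2 -2.15 ± 0.06), named after its values were seen. Hes5, the Notch target that keeps progenitors from differentiating, ran from 0.0571 to 0.168 CPM (median 0.109) in ESC and rose to 28.6, 26.3, 25.6 and 31.2 CPM (log2 change 7.98 ± 0.13, adjusted p = 2.72e-08). Dll1, the ligand that newborn neurons present, ran from 4.47 to 6.61 CPM (median 4.93) and rose to 129, 132, 135 and 137 CPM (log2 change 4.69 ± 0.09, adjusted p = 3.34e-08). Other rises of this list were in the targets Hes3 (0.0634 to 7.62 CPM), Heyl (0.0481 to 3.32 CPM) and Nrarp (2.6 to 74.1 CPM).

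The proneural bHLH factors, which commit cells to a neuronal fate, rose from near 0. In their list 17 of 20 rose and 2 fell (median log2 8.04, and 6.79 with genes at 0 in ESC set to their bound). Neurog2 ran from 0 to 0.0479 CPM (median 0.0148) in ESC and reached 26.5, 27, 26.5 and 24.2 CPM (log2 change 10.43 ± 0.29, adjusted p = 1.28e-07). Its change was 11.97 without clone 09, 9.81 without clone 30 and 11.24 without ESC library 3 of clone 09. Nhlh2, expressed in newborn neurons, ran from 0 to 0.0598 CPM (median 0.0239), with 12 counts in all ESC libraries, and reached 96.6, 99.6, 107 and 94.4 CPM (log2 change 11.61 ± 0.15, adjusted p = 2.02e-08). Both genes were near 0 in each ESC library and above 20 CPM in each neural library. Neurod1, a later factor of the series, behaved otherwise: it ran from 9.33 to 18.5 CPM (median 12.5) in ESC and stood at 13.6, 13.4, 13.5 and 14.3 CPM (log2 change -0.02 ± 0.18, adjusted p = 0.908). Its libraries overlapped between stages.

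Homeobox and EBF factors that give neurons their type rose for 22 of 24 and fell for 0 (median log2 6.98). Onecut1 ran from 0.287 to 0.397 CPM (median 0.328) and reached 41.9, 42.9, 47.2 and 36.6 CPM (log2 change 6.99 ± 0.12, adjusted p = 2.98e-08). Ebf2, a factor of early neuronal differentiation, ran from 0.0578 to 0.396 CPM (median 0.209) and reached 64.8, 65.3, 71.2 and 64.4 CPM (log2 change 8.28 ± 0.34, adjusted p = 5.76e-07; 9.33 without clone 09). Isl1, found in motor and sensory neurons, reached lower levels, 3.05, 3.72, 3.34 and 2.94 CPM, from 0.094 to 0.304 CPM (median 0.223) (log2 change 3.79 ± 0.20, adjusted p = 1.83e-06). The POU factors Pou3f2 (0.139 to 175 CPM, log2 10.28 ± 0.15) and Pou3f3 (0.205 to 219 CPM, 10.05 ± 0.15) were among the largest fitted rises of the list. The members not called were Phox2a (1.42 CPM in ESC and 1.41 CPM in neural cultures) and Pou4f2 (1.98 CPM in ESC and 2.18 CPM in neural cultures).

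Genes of the neuronal cytoskeleton and of neuronal RNA-binding proteins rose for 24 of 30 and fell for 2 (median log2 3.42). Dcx, the microtubule protein of migrating neurons (chrX:143855842-143933311), ran from 0.0285 to 0.241 CPM (median 0.149) in ESC and reached 366, 375, 415 and 339.6 CPM (log2 change 11.34 ± 0.29, adjusted p = 9.86e-08). The change was 12.59 without clone 09 and 10.72 without clone 30. Tubb3, the neuronal tubulin, ran from 32.5 to 66.9 CPM (median 46.4) and rose to 588, 611, 570.4 and 639 CPM (log2 change 3.63 ± 0.32, adjusted p = 2.83e-05). Map2, of dendrites, ran from 10.5 to 15.7 CPM (median 12.9) and rose to 433, 439, 468 and 402 CPM (log2 change 5.07 ± 0.11, adjusted p = 5.37e-08). Tubb3 was thus detected at over 30 CPM before conversion, whereas Dcx was not above 0.241 CPM in any ESC library. Among RNA-binding proteins Elavl3 (HuC) rose to 97.4, 102, 108 and 107 CPM from 10.2 to 12.7 CPM (median 10.7), and Elavl4 (HuD) to 115, 124, 128 and 115 CPM from 4.04 to 6 CPM (median 4.88); their log2 changes were 3.21 ± 0.09 and 4.62 ± 0.11. Stmn2, a tubulin-binding protein used as a neuron marker, was at 226 to 255 CPM (median 231) in ESC and at 166, 172, 169 and 166 CPM after conversion (log2 change -0.50 ± 0.12, adjusted p = 0.0063). All neural libraries lay below all ESC libraries for Stmn2, by less than 2-fold. The axon guidance list rose for 18 of 19 and fell for 0, among them Robo2 (0.232 to 79.9 CPM, log2 8.41 ± 0.11) and Dcc, the netrin receptor (2.09 to 261 CPM, 6.96 ± 0.90).

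Synapse genes rose for 18 of 22 and fell for 1 (median log2 2.81). Snap25, a core of the vesicle fusion machine, ran from 0.635 to 1.51 CPM (median 0.863) in ESC and rose to 22.5, 22.5, 22.2 and 20.2 CPM (log2 change 4.56 ± 0.25, adjusted p = 2.25e-06). Syt1, the calcium sensor of release, ran from 0.893 to 1.56 CPM (median 0.995) and rose to 30.1, 31.7, 32.8 and 31.3 CPM (log2 change 4.77 ± 0.16, adjusted p = 2.47e-07). Of 21 channel and receptor genes 17 rose and 0 fell, among them Gria2, an AMPA receptor subunit (0.0394 to 44.8 CPM, log2 10.05 ± 0.40). Transmitter genes were less uniform: 8 of 15 rose and 4 fell. Slc17a6 (VGLUT2), which loads glutamate, reached 26.3, 26.2, 28 and 25.8 CPM (log2 change 5.12 ± 0.79, adjusted p = 0.000657). In ESC it ran from 0.116 to 0.164 CPM in the libraries of clone 30 and from 1.13 to 1.87 CPM in those of clone 09. Its log2 change was 7.66 without clone 09 and 4.26 without clone 30. Gad2, one of the GABA synthesis enzymes, ran from 0.431 to 0.929 CPM (median 0.696) and rose to 4.63, 5.61, 6.37 and 4.72 CPM (log2 change 2.99 ± 0.22, adjusted p = 9.99e-06). Gad1, the other, was at 0.94 to 3.58 CPM (median 2.3) in ESC and at 2.09, 2.69, 2.6 and 1.92 CPM after conversion (log2 change -0.08 ± 0.29, adjusted p = 0.813). Dbh, of noradrenaline synthesis, had 0 counts in ESC and 51 in the neural libraries, at least 26.5-fold higher against a floor of 3 counts over the group, which covers counting error only.

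In the glial list 12 of 17 rose and 2 fell, and several members that rose also mark progenitors. Fabp7, Sox9 (0.236 to 57 CPM) and the glutamate transporter genes Slc1a2 (0.157 to 63.2 CPM) and Slc1a3 are also expressed by radial glia. Slc1a3 ran from 15.5 to 27.6 CPM (median 20.2) and rose to 55.3, 57.6, 61.5 and 49.6 CPM (log2 change 1.38 ± 0.11, adjusted p = 1.34e-05). Olig2, of oligodendrocyte and motor neuron progenitors, ran from 0 to 0.0458 CPM (median 0.0158) and rose to 7.33, 8.77, 8.36 and 7.49 CPM (log2 change 8.54 ± 0.44, adjusted p = 1.86e-06). Gfap, the filament of mature astrocytes, ran from 0.535 to 0.778 CPM (median 0.658) and fell to 0.106, 0.0746, 0.0608 and 0.0414 CPM (log2 change -3.18 ± 0.34, adjusted p = 7.96e-05).

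Regional identity genes of several levels of the neural tube rose. In the forebrain list 16 of 18 rose and 1 fell (median log2 6.18, and 6.06 at the bound), in the midbrain and hindbrain list 13 of 17 rose and 1 fell, and in the Hox list 17 of 21 rose and 0 fell. Otx2, of fore- and midbrain and also of formative cells, ran from 22 to 36.3 CPM (median 28.3) and rose to 91.8, 96.6, 95.9 and 98.1 CPM (log2 change 1.72 ± 0.12, adjusted p = 7.03e-06). Fezf1, of the anterior forebrain, had 1 count in all ESC libraries and 9194 in the neural ones (0.00279 to 37.3 CPM), a ratio of 14340-fold with an exact 95% counting interval from 2573 to 566500. En2, of the midbrain-hindbrain boundary, ran from 2.74 to 3.3 CPM (median 2.85) and rose to 50.9, 48.8, 49.9 and 52.9 CPM (log2 change 4.10 ± 0.34, adjusted p = 1.95e-05). Gbx2, which lies behind that boundary and is also a LIF target in ESC, ran from 36.1 to 51.6 CPM (median 40.9) and fell to 12.9, 14, 14.5 and 13.7 CPM (log2 change -1.63 ± 0.31, adjusted p = 0.00183); the call was lost without either MD clone. Hox genes stayed low. The summed level of their list was 1.7 to 2.32 CPM in the ESC libraries and 15.2 to 16.7 CPM in the neural libraries. Hoxb4 ran from 0.159 to 0.282 CPM (median 0.22) and stood at 0.698, 0.642, 0.653 and 0.703 CPM (log2 change 1.59 ± 0.28, adjusted p = 0.00133), a call lost without clone 30. Hoxb9, of the trunk, ran from 0.533 to 0.824 CPM (median 0.579) and stood at 3.87, 3.07, 3.75 and 4.36 CPM (log2 change 2.57 ± 0.17, adjusted p = 7.06e-06). In the dorsal neural tube and crest list 10 of 14 rose and 1 fell. Tfap2b had 2 counts in ESC and 20321 in the neural libraries (0.00488 to 82.7 CPM), a ratio of 15850-fold with an exact 95% counting interval from 4387 to 130900, and Pax7 went from 0.128 to 41.4 CPM (log2 8.33 ± 0.12).

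**Figure D2:**
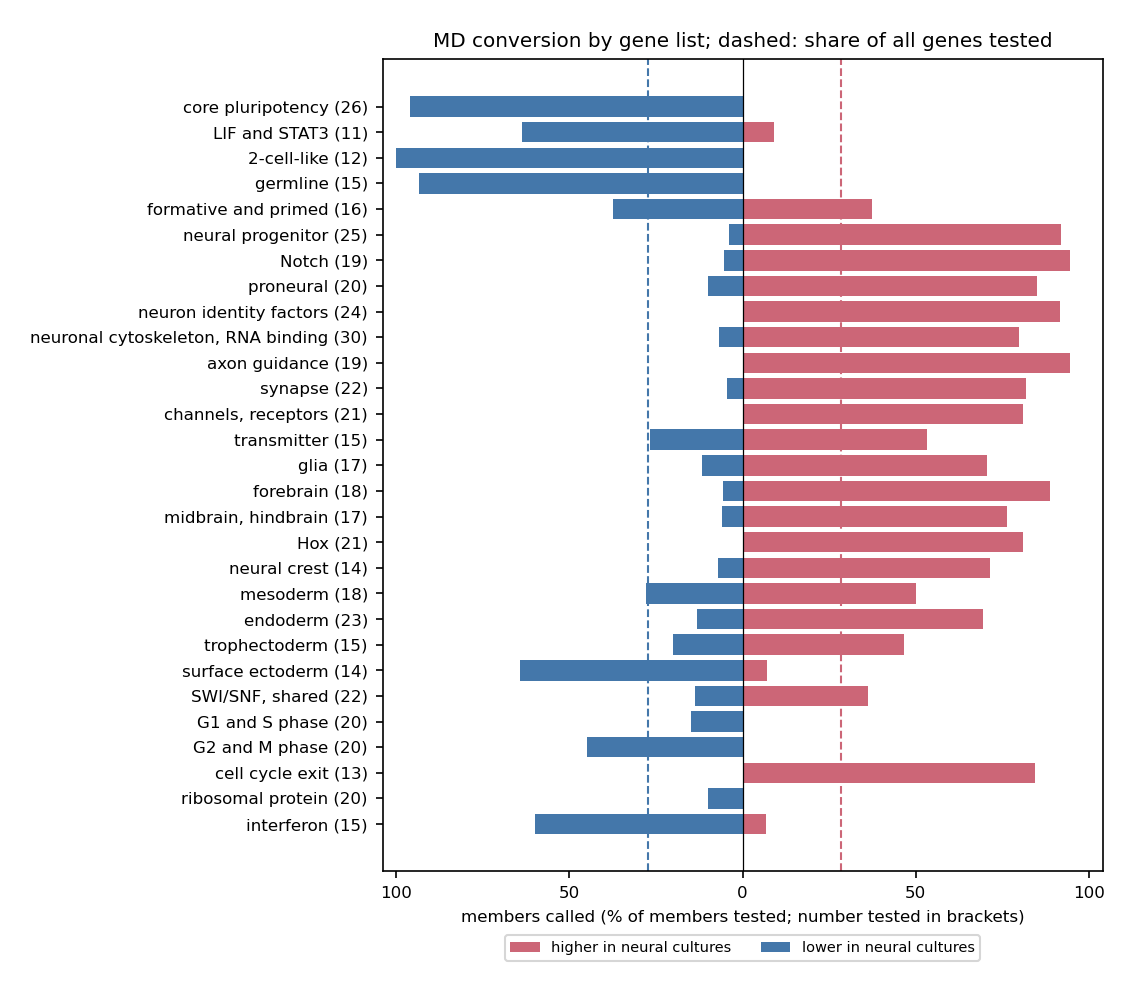
Share of tested members called in 29 gene lists: red bars to the right are genes higher and blue bars to the left genes lower in the MD neural cultures, with the number tested in brackets. Dashed lines are the shares among all genes, 28.5% higher and 27.2% lower; pluripotency, 2-cell-like and germline bars reach far left, and progenitor, Notch, neuronal and regional bars far right.

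Markers of other lineages were measured beside these, since the labels describe no sort. Among all genes 28.5% were higher and 27.2% lower. In the mesoderm list 9 of 18 rose and 5 fell, with a summed level of 26.2 to 39.7 CPM in the ESC libraries and 63.9 to 69.9 CPM in the neural libraries. In the endoderm list 16 of 23 rose and 3 fell (428 to 610.3 CPM in the ESC libraries and 1266 to 1485 CPM in the neural libraries). In the trophectoderm list 7 of 15 rose and 3 fell (101 to 139 CPM in the ESC libraries and 135 to 143 CPM in the neural libraries), and in the list of fibroblast, mesenchyme and smooth muscle genes 7 of 15 rose and 6 fell (823 to 986 CPM in the ESC libraries and 612 to 663 CPM in the neural libraries). T (brachyury), the defining mesoderm factor, ran from 0.428 to 1.62 CPM (median 0.785) and rose to 8.66, 10.2, 12 and 8.38 CPM (log2 change 3.46 ± 0.35, adjusted p = 6.65e-05). Gata6, of primitive and definitive endoderm, ran from 0.791 to 1.5 CPM (median 1.09) and rose to 6.17, 9.58, 7.69 and 7.34 CPM (log2 change 2.78 ± 0.43, adjusted p = 0.00064). Sox17, of endoderm and endothelium, went from 0.38 to 20.8 CPM. The endoderm list also holds genes that neural cells express, such as Cxcr4 (0.389 to 78.9 CPM). Ttr, a secreted protein of yolk sac endoderm and choroid plexus, rose from 0.0362 to 2.5 CPM. Tpbpa, of the placental spongiotrophoblast, had 0 counts in ESC and 432 in the neural libraries, at least 225-fold higher. Acta2, smooth muscle actin, ran from 11.8 to 22.8 CPM (median 18.9) and fell to 4.49, 3.81, 3.66 and 3.6 CPM (log2 change -2.23 ± 0.56, adjusted p = 0.00733), while the collagen gene Col3a1 went from 0.382 to 37.3 CPM (log2 6.59 ± 0.36). Of 10 endothelium and blood genes 4 rose and 5 fell, the summed level being 162 to 197 CPM in the ESC libraries and 37 to 42.5 CPM in the neural libraries; the embryonic globin gene Hbb-bh1 had 46 counts in ESC and 0 in the neural libraries. Of 9 microglia and macrophage markers 3 passed the filter, with a summed level of 10.6 to 18.2 CPM in the ESC libraries and 2.19 to 2.4 CPM in the neural libraries. Of these Csf1r rose (0.1 to 0.291 CPM), and Cd68, which makes up most of the sum (14.7 to 1.98 CPM), and Trem2 (46 counts in ESC and 0 in the neural libraries) fell. Csf1r and Cd68 are named after their values were seen. Cx3cr1 and Tyrobp had 0 counts in all 10 libraries. The part of other cell types in the changes was not tested.

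Of the 4 neuronal SWI/SNF subunits named above 3 rose, and Dpf1 was not called. Actl6b (BAF53B, chr5:137553517-137569582) ran from 0 to 0.0479 CPM (median 0.0215) in ESC, with 9 counts in all, and reached 7.92, 8.61, 8.32 and 8.15 CPM (log2 change 8.42 ± 0.33, adjusted p = 4.94e-07). Its counterpart Actl6a (BAF53A) ran from 179 to 215 CPM (median 199) and fell to 98.1, 101, 94.7 and 98.2 CPM (log2 change -1.04 ± 0.05, adjusted p = 9.07e-07). At these levels Actl6a RNA remained far above Actl6b in every neural library. The fall of Actl6a is close to 2-fold and was not called without clone 30 (log2 -0.99), without ESC library 3 of clone 09 (-0.999), against the ESC of the second run (-0.99), with total-count scaling (-0.85), or with the neural libraries of each genotype summed (-0.97). Dpf3 (BAF45C) ran from 0.257 to 0.347 CPM (median 0.307) and rose to 6.07, 6.88, 6.67 and 5.65 CPM (log2 change 4.35 ± 0.24, adjusted p = 2.5e-06), and Ss18l1 (CREST) ran from 9.96 to 12.7 CPM (median 11.9) and rose to 34.4, 35.9, 35.5 and 33.3 CPM (log2 change 1.59 ± 0.08, adjusted p = 1.91e-06). Dpf1 (BAF45B) was at 10.4 to 17.9 CPM (median 14.7) in ESC and at 16.1, 14.9, 16.6 and 17 CPM after conversion, and was not called (log2 change 0.13 ± 0.11, adjusted p = 0.299). Phf10 (BAF45A) was at 109 to 157 CPM (median 127) in ESC and at 214, 225, 241 and 211 CPM in neural libraries, above the ESC range but under 2-fold (log2 change 0.78 ± 0.09, adjusted p = 0.000126), and Ss18 was at 177 CPM in ESC and 117 CPM in neural cultures (log2 change -0.60 ± 0.05, adjusted p = 1.4e-05). The progenitor forms Phf10 and Ss18 thus passed the adjusted p but not the 2-fold limit, Phf10 being higher and Ss18 lower in neural cultures.

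Of the 22 shared subunits 8 rose and 3 fell, beside 28.5% higher and 27.2% lower among all genes. The ATPase Smarca4 (BRG1) was at 186 to 259 CPM (median 248) and at 370.5, 366, 381 and 383 CPM, a change under 2-fold (log2 change 0.64 ± 0.05, adjusted p = 2.4e-05). The other ATPase, Smarca2 (BRM), went from 2.77 to 64.4 CPM (log2 4.54 ± 0.16). Of the scaffold pair, Smarcc1 (BAF155) was at 409 CPM in ESC and 322 CPM in neural cultures and not called, and Smarcc2 (BAF170) went from 31.6 to 197 CPM (log2 2.64 ± 0.05). Smarcd3 (BAF60C) ran from 1.89 to 2.96 CPM (median 2.41) and rose to 15.4, 14.2, 16.2 and 17.4 CPM (log2 change 2.68 ± 0.15, adjusted p = 2.72e-06). Bicra, of the non-canonical complex, went from 6.29 to 55.7 CPM (log2 3.15 ± 0.12). The 3 that fell, named here after their values were seen, were Bicral (136 to 27.3 CPM), Smarcd2 (85.6 to 25.3 CPM) and Actb (1714 to 767 CPM).

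**Figure D3:**
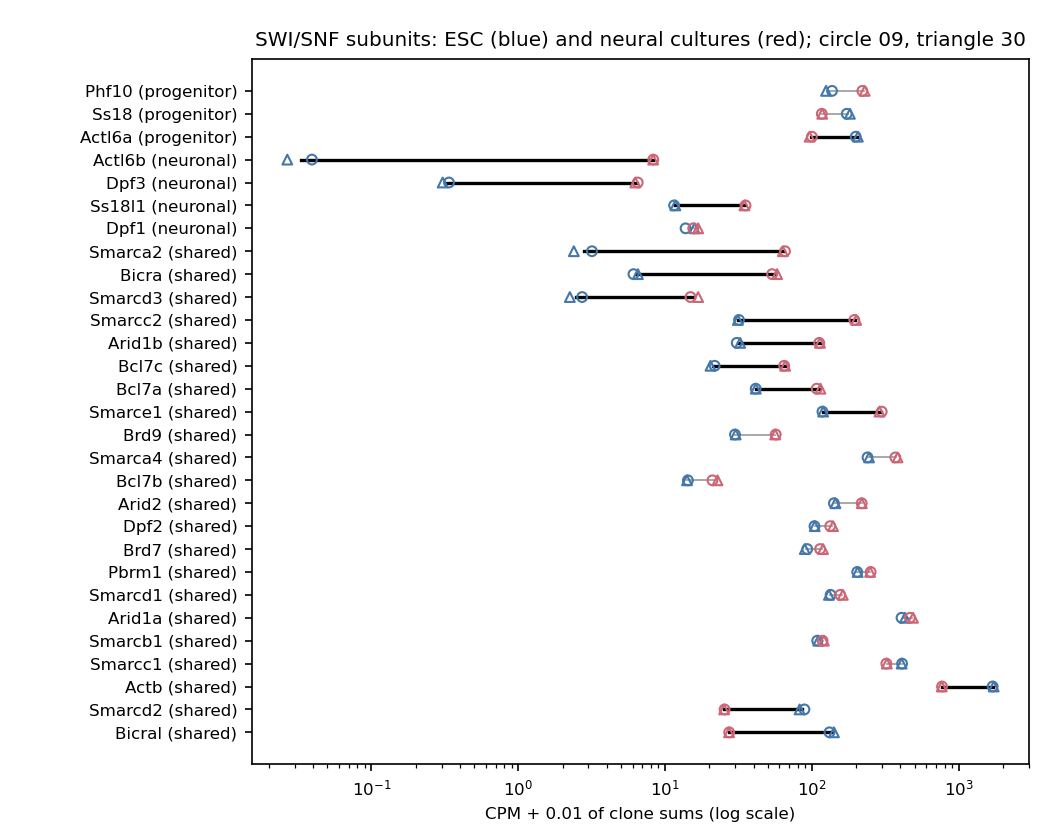
Level of 29 SWI/SNF subunit genes (CPM plus 0.01 of clone sums, log axis) in MD ESC (blue) and MD neural cultures (red), circles clone 09 and triangles clone 30; lines join the stage means, black where the change was called. Actl6b, Dpf3 and Smarca2 move furthest right, and Actl6a stays above Actl6b after conversion.

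REST represses neuronal genes outside neurons by binding the RE1 element. Rest RNA ran from 487 to 572 CPM (median 520.1) in ESC and fell to 66.6, 68.4, 70.6 and 64.7 CPM (log2 change -2.96 ± 0.05, adjusted p = 3.32e-08). The stages were far apart, and Rest was still above 60 CPM in each neural library. Srrm4, a splicing regulator of neurons, ran from 0.838 to 1.3 CPM (median 1.13) and rose to 66.4, 65.6, 71.6 and 67.3 CPM (log2 change 5.93 ± 0.09, adjusted p = 2.12e-08), and Ptbp2 (nPTB), another, ran from 42.3 to 70.7 CPM (median 51.1) and rose to 265, 248, 265 and 239 CPM (log2 change 2.28 ± 0.08, adjusted p = 3.78e-07). Ptbp1, which holds back neuronal splicing, was at 451 to 585 CPM (median 552) in ESC and at 393, 392, 395 and 417 CPM after conversion, a change under 2-fold (log2 change -0.46 ± 0.06, adjusted p = 0.000276). In the list of REST and splicing genes 5 of 10 rose and 1 fell.

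To place an RE1 element beside these values, the RefSeq promoters of GRCm38 (250 bases before to 50 after the start) were searched on both strands for CAGCACC, any 2 bases, then GGACAG. The motif was chosen after the data were seen. It occurred in 12 of 32851 promoters (0.0365%), of 11 genes, of which 9 were tested. Of these, 4 rose, 2 fell and 3 were not called. The windows below, 5′ to 3′ on the strand of the gene with the element in capitals, are shown for 3 genes that rose and 1 that fell. All 4 hold it on the opposite strand, hence as CTGTCC, 2 bases, GGTGCTG.
Fbll1 chr11:35799036-35799094, gene on the minus strand: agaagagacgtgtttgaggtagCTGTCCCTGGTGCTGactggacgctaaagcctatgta
Osbp2 chr11:3774771-3774829, gene on the minus strand: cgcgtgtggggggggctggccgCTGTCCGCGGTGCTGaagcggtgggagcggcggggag
Hrh3 chr2:180104554-180104612, gene on the minus strand: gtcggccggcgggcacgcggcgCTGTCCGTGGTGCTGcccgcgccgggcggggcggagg
Sptbn4 chr7:27396260-27396318, gene on the minus strand: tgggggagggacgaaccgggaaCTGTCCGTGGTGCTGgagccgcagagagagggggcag

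Fbll1, a fibrillarin-like gene of brain, went from 0.0512 to 5.21 CPM (log2 6.68 ± 0.43). Osbp2, an oxysterol-binding protein gene, went from 0.261 to 4.14 CPM (log2 3.98 ± 0.24). Hrh3, a histamine receptor gene, went from 0.287 to 0.883 CPM (log2 1.61 ± 0.25), and Sptbn4, a spectrin gene of axons, fell from 17.9 to 3.19 CPM (log2 -2.49 ± 0.13). The fourth gene that rose was Ttc9b, and Fam163b was the other that fell. Binding of REST was not measured.

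LIN28 blocks the maturation of let-7, a miRNA family that ends early developmental programmes. Lin28a ran from 386 to 530.3 CPM (median 448) in ESC and fell to 146, 147, 153 and 151 CPM (log2 change -1.61 ± 0.09, adjusted p = 2.67e-06), while its relative Lin28b went from 88.2 to 231 CPM (log2 1.39 ± 0.11; named after its values were seen). Of 14 genes of this list 5 rose and 4 fell. A pair of let-7 targets of progenitors, Hmga2 (23 to 385 CPM, log2 4.07 ± 0.06) and Ccnd2 (42.1 to 687 CPM, 4.03 ± 0.59), rose, and Trim71 fell (370.3 to 101 CPM, -1.88 ± 0.07).

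Long RNAs that host miRNAs were looked at next, and their mature products are shown with the seed (bases 2 to 8) in capitals, from RefSeq (GRCm38.p6). The miR-9 arms come from both Mir9-3hg (chr7:79500026-79534403) and C130071C03Rik (chr13:83721381-83884194); let-7c and miR-99a lie in Mir99ahg (chr16:77236317-77773427). The 2 shown of the Mir17hg cluster (chr14:115042879-115046727) share the seed AAAGUGC. These hosts were chosen after their values were seen, to show miRNAs of hosts that rose beside those of a host that was not called.
miR-9-5p: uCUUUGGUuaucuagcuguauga
miR-9-3p: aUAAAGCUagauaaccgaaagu
let-7c-5p: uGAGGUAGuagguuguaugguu
miR-99a-5p: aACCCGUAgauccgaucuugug
miR-17-5p: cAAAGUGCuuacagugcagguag
miR-20a-5p: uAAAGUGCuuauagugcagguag

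Mir9-3hg went from 1.21 to 20.1 CPM (log2 4.05 ± 0.30) and C130071C03Rik from 0.393 to 68.3 CPM (7.41 ± 0.50). Mir99ahg had 2 counts in all ESC libraries and 500 in the neural ones, a ratio of 389.9-fold with an exact 95% counting interval from 107 to 3229. Mir124-2hg, host of the neuronal miR-124, went from 0.0973 to 91.9 CPM (log2 9.82 ± 0.35), and AU018091 fell from 344 to 1.44 CPM (-7.90 ± 0.11). Mir17hg, host of a cluster of dividing cells, was at 52.7 CPM in ESC and 42.9 CPM in neural cultures and not called. In the host gene list 7 of 13 rose and 2 fell. The RNA of a host is not the mature miRNA, whose levels were not measured here.

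Signalling genes were counted by pathway, beside 28.5% higher and 27.2% lower among all genes. For Wnt 13 of 17 rose and 1 fell (median log2 3.46), with Wnt8b (0.187 to 109 CPM) and Lgr5 (0.224 to 11.4 CPM) among the genes that rose. For Hedgehog 6 of 11 rose and 1 fell, with Shh itself going from 0.03 to 6.07 CPM and the co-receptor gene Boc from 1.66 to 155 CPM, while the targets Ptch1 (208 CPM in ESC and 194 CPM in neural cultures) and Gli1 (66.7 CPM in ESC and 44.2 CPM in neural cultures) were not called. For FGF and ERK 7 of 17 rose and 6 fell: the receptor gene Fgfr3 went from 1.74 to 58.1 CPM and the feedback inhibitor Spry4 from 127 to 9.41 CPM. For Nodal and BMP 9 of 17 rose and 6 fell, with the Nodal inhibitors Lefty1 (38.2 to 0.916 CPM) and Lefty2 (45.4 to 1.03 CPM) falling and Id4, a BMP target of progenitors, rising (1.57 to 137 CPM). For retinoic acid 8 of 15 rose and 2 fell. Cyp26b1, which degrades retinoic acid, went from 0.236 to 224 CPM (log2 9.88 ± 0.13), and the receptor gene Rarg from 102 to 3.89 CPM (-4.71 ± 0.32).

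Lists of chromatin regulators held genes of both directions, as did all genes (28.5% higher and 27.2% lower). In the DNA methylation list 2 of 12 rose and 4 fell: Dnmt3l, the cofactor of de novo methylation, went from 309 to 1.67 CPM (log2 -7.53 ± 0.24), and the hydroxylase gene Tet1 from 1344 to 76.7 CPM (-4.13 ± 0.08), while Tet3 rose from 23.1 to 225 CPM (3.28 ± 0.10). The maintenance enzyme gene Dnmt1 was at 319.8 CPM in ESC and 334 CPM in neural cultures and not called. In the Polycomb list 5 of 19 rose and 9 fell. Among the 5 that rose were Cbx8 (0.608 to 13.3 CPM) and Bmi1 (8.9 to 83.3 CPM), both of the first complex. Ezh2, the methyltransferase of the second, was at 222 CPM in ESC and 227 CPM in neural cultures and not called. Imprinted genes rose for 14 of 24 and fell for 5. Nnat, of neural tissue, went from 14.6 to 546 CPM (log2 5.23 ± 0.11), and Phlda2, of placenta, from 12.3 to 0.127 CPM (-6.59 ± 0.31).

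Cell division genes were called lower or not at all, while among all genes 28.5% were higher and 27.2% lower. The share that fell was below that of all genes in the G1 and S phase list. Of 20 G2 and mitosis genes 9 fell and 0 rose (median log2 -0.77), and of 20 G1 and S phase genes 3 fell and 0 rose (-0.40). Ccnb1, cyclin B1, ran from 428 to 499 CPM (median 451) and fell to 191, 182, 172 and 177 CPM (log2 change -1.35 ± 0.05, adjusted p = 4.16e-07). Mki67, a marker of cycling cells, was at 332 to 526 CPM (median 409) in ESC and at 513, 480.5, 481 and 429.8 CPM in neural libraries, with overlapping ranges (log2 change 0.21 ± 0.07, adjusted p = 0.0217). Ccne1, cyclin E1, fell from 289 to 39.5 CPM (log2 -2.88 ± 0.04). Genes of cell cycle exit rose for 11 of 13 and fell for 0: Cdkn1c (p57) ran from 6.01 to 6.78 CPM (median 6.28) and rose to 40.5, 45, 44.1 and 41.8 CPM (log2 change 2.76 ± 0.06, adjusted p = 6e-08), and Gadd45g went from 2.76 to 31.1 CPM. Cycling and exit markers were thus present in the same libraries. Of 15 p53 target genes 6 rose and 2 fell, with Cdkn1a (p21) going from 33.9 to 102 CPM (log2 1.59 ± 0.13).

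Housekeeping lists held few called genes, and their levels rest in part on copies that can share reads. Of 20 ribosomal protein genes 2 fell and 0 rose (median log2 -0.59), and of 18 nuclear genes of oxidative phosphorylation 2 fell and 0 rose (-0.68). Of 19 glycolysis and hypoxia genes 5 fell and 1 rose: the glucose transporter gene Slc2a3 went from 1079 to 256 CPM (log2 -2.07 ± 0.10) and Vegfa from 31.7 to 247 CPM (2.96 ± 0.13). Cholesterol synthesis genes rose for 4 of 19 and fell for 0. Interferon response genes fell for 9 of 15 and rose for 1 (median log2 -3.48), for example Ifitm3, from 98.7 to 1.82 CPM. Immediate early and stress genes rose for 7 of 19 and fell for 2: Jun went from 4.48 to 63.3 CPM and the heat shock gene Hspb1 from 88.1 to 3.08 CPM.

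Among genes outside every list, named by size of change at 5 CPM or more, Zic4, a dorsal neural factor beside Zic1, had 2 counts in ESC and 54.4, 55.2, 56 and 53 CPM in the neural libraries, a ratio of 10550-fold with an exact 95% counting interval from 2921 to 87160. Slitrk1, a neuronal adhesion gene, reached 22.6, 25.3, 25.2 and 24.7 CPM from 2 counts in ESC, and Sst, the neuropeptide somatostatin, reached 17.6, 19.4, 16.4 and 19 CPM, also from 2 counts. Nr2e1 (TLX), a receptor of neural stem cells, went from 0.0132 to 39.6 CPM (log2 11.49 ± 0.16). It had 5 counts in ESC, and the exact 95% counting interval of its ratio ran from 1301 to 9356. Nr2f1 (COUP-TFI), of cortical patterning, went from 0.0659 to 139.9 CPM. Dbx1, of ventral interneuron progenitors, went from 0.0174 to 39 CPM and Erbb4, a neuregulin receptor gene, from 0.0342 to 61.1 CPM; the others were Mab21l1, Slitrk6, Pantr1, Rorb and Foxb1. AF067061 had 1976 counts in ESC and 0 in the neural libraries, at least 422-fold lower. Pramel7, of naive ESC, had 1 count in the neural libraries (7.14 to 0.00439 CPM). Khdc3, of oocytes and early embryos, went from 36.7 to 0.0829 CPM (log2 -8.74 ± 0.45), and Calcoco2, an autophagy receptor gene, from 187 to 0.439 CPM (-8.73 ± 0.29). Msln, Mymx, Myo1f, Tmem92, Shoc1, Tex13c2 and Trim52 were also among the falls named by this rule.

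Levels per kilobase of annotated exon (CPM per kilobase) placed the stages side by side. mt-Co1, a mitochondrial gene, was highest at both stages, at 7460 in ESC and 4829 in neural cultures, followed by the elongation factor gene Eef1a1 at 4938 and 3906. Dppa5a, an ESC-specific RNA-binding protein, was sixth in ESC at 2044 and was at 14.7 after conversion. Tuba1a, the tubulin of newborn neurons, was among the 10 highest in neural cultures only, at 1224 against 289 in ESC.

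The conversion of the R42A clones from the same runs was set beside that of MD. Of the genes called in MD, 10457 were called in R42A in the same direction, 78.8% of the MD calls and 85.1% of the R42A calls, and 74 in the opposite direction. Across genes the 2 sets of log2 changes had a Pearson r of 0.911, with genes not being independent replicates. The difference of the conversions was called for 2489 genes: 1385 more positive in MD (5.81%) and 1104 more negative (4.63%). The count was 77 without clone 09 and 114 without clone 30, and 0 of 25619 with the neural libraries of each genotype summed to 1 sample (edgeR; 4559 at an unadjusted p under 0.05). All 2489 genes kept the sign of their difference in each of these, with a median absolute log2 difference between 1.71 and 1.75. They were picked by that difference in the full fit, and these fits reuse its libraries, so the kept sign is a description only. The count was 3167 without R42A clone A04 and 3119 without A10. Every value of a difference below carries this limit, and an MD minus R42A difference can lie in either stage.

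The called differences were mostly positive in 5 neuronal lists. In the list of neuronal homeobox and EBF factors 8 of 24 differences were called positive and 0 negative, in the proneural list 9 of 20 and 0, in the cytoskeleton list 12 of 30 and 0, in the synapse list 8 of 22 and 0, and in the channel and receptor list 10 of 21 and 1. The axon guidance list held 3 of each direction among 19 (median log2 difference -0.02), and the transmitter list 4 positive and 0 negative of 15 (median -0.13). The forebrain list held 6 positive and 3 negative of 18, the Hox list 3 and 0 of 21. The midbrain and hindbrain list held 1 and 4 of 17 (median -1.14), and the Notch list 1 and 3 of 19. Glial genes held 1 of each among 17, and crest genes 2 of each among 14. Outside neural genes, the glycolysis and hypoxia list held 6 positive and 0 negative of 19. Nhlh2 went from 0.0307 to 100.2 CPM in MD and from 0.0371 to 17.9 CPM in R42A (log2 difference 2.72 ± 0.34, adjusted p = 0.0023). Elavl3 went from 16.6 to 47.4 CPM in R42A (log2 difference 1.70 ± 0.12, adjusted p = 0.000477), and Snap25 from 1.35 to 8.83 CPM (log2 difference 1.84 ± 0.31, adjusted p = 0.00707). Gad2 was at 0.344 CPM in ESC and 0.399 CPM in neural cultures in R42A (log2 difference 2.77 ± 0.31, adjusted p = 0.0017). Stmn2, under 2-fold lower in MD neural cultures, was at 312 CPM in ESC and 59 CPM in neural cultures in R42A (log2 difference 1.90 ± 0.17, adjusted p = 0.000879). Scn3a, a sodium channel gene of young neurons, went from 3.68 to 71.7 CPM in MD and from 13.6 to 11.7 CPM in R42A (log2 difference 4.51 ± 0.30, adjusted p = 0.000349). Among SWI/SNF subunits the neuronal Actl6b went from 0.0537 to 1.46 CPM in R42A (log2 difference 3.66 ± 0.49, adjusted p = 0.00323; 2.99 without A04), and Dpf3 from 0.384 to 2.32 CPM (log2 difference 1.76 ± 0.31, adjusted p = 0.00857); Smarcd3 differed by log2 1.27 ± 0.20. Other genes with large positive differences were the homeobox genes Tlx1 (0.0906 to 5.88 CPM in MD, 0.235 to 0.622 CPM in R42A) and Vax2 (0.0714 to 5.27 CPM in MD, 0.964 to 3.45 CPM in R42A), and Nxph4 (0.426 to 14.8 CPM in MD, 2.36 to 5.43 CPM in R42A). In Scn3a, Vax2 and Nxph4 the ESC means differed as well, R42A being higher. Nkx6-3, a homeobox gene, fell from 0.843 to 0.0169 CPM in MD and had 0 counts in R42A neural cultures, from 6.89 CPM in R42A ESC.

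Called differences were mostly negative in several lists of other lineages. In the mesenchyme and smooth muscle list 6 of 15 were called negative and 1 positive, in the endoderm list 8 of 23 and 1, and in the surface ectoderm list 8 of 14 and 1. The trophectoderm list held 4 of 15 and 1, and the endothelium and blood list 4 of 10 and 2. The mesoderm list held few called differences, 1 of 18 negative and 2 positive, with a median log2 difference of -0.53. Lists outside these lineages held negative calls too, such as formative and primed (9 of 16) and cadherin (7 of 14), with 0 positive in both. Acta2 fell from 18.3 to 3.9 CPM in MD and went from 3.75 to 82.5 CPM in R42A (log2 difference -6.69 ± 0.81, adjusted p = 0.00214). Tagln, another smooth muscle gene, fell from 34 to 3.71 CPM in MD and went from 7.01 to 105 CPM in R42A (log2 difference -7.09 ± 0.68, adjusted p = 0.00101), and Myl9 went from 5.79 to 28 CPM in R42A (log2 difference -5.34 ± 0.22, adjusted p = 0.000182). Apob, of endoderm, fell from 2.98 to 0.767 CPM in MD and went from 2.27 to 18.6 CPM in R42A (log2 difference -5.0 ± 0.42, adjusted p = 0.000682). For Acta2 and Tagln the mean of MD ESC was above that of R42A ESC, and the mean of MD neural cultures below. The difference of Acta2 was -6.01 without R42A clone A04 and -8.11 without A10. The fall of Acta2 in MD was itself not called without clone 09 (log2 -2.32) or 30 (-2.15), without the low-count filter (-2.24), or with the neural libraries summed (-2.16). The progenitor genes Nes (18.8 to 593 CPM in R42A; log2 difference -2.68 ± 0.22, adjusted p = 0.000654) and Cdh2 (4.16 to 443 CPM; log2 difference -1.48 ± 0.11, adjusted p = 0.000486) and the formative genes Fgf5 (0.215 to 1.83 CPM; log2 difference -5.40 ± 0.69, adjusted p = 0.00263) and Dnmt3b (177 to 57.6 CPM; log2 difference -2.12 ± 0.06, adjusted p = 8.56e-05) were also negative. The neural progenitor list, which holds Nes, was split, with 4 of 25 differences called negative and 3 positive (median log2 difference -0.12). For Cdh2, of the cadherin list, the neural means were close (458 CPM in MD and 443 CPM in R42A), and the ESC means differed (12 and 4.16 CPM). For Nes, Fgf5 and Dnmt3b the mean of MD ESC was above that of R42A ESC, and the mean of MD neural cultures below. The Fgf5 difference was not called without MD clone 09 (-4.67), without R42A clone A04 (-5.06) or A10 (-5.85), or with the neural libraries summed (-5.39). Lin28a was negative too and was at 286 CPM in ESC and 262 CPM in neural cultures in R42A (log2 difference -1.48 ± 0.12, adjusted p = 0.000688). The fall of Pou5f1 did not differ by a call (log2 difference -0.09 ± 0.09, adjusted p = 0.538), nor did the rise of Dcx (log2 difference -1.66 ± 0.97, adjusted p = 0.264; -0.41 without MD clone 09, -2.28 without clone 30 and -2.47 without A10) or Dll1 (log2 difference 0.18 ± 0.11, adjusted p = 0.268). Pou5f1 does not stand for its whole list. In the core pluripotency list 5 of 26 differences were called positive, Esrrb among them (1.26), and 2 negative (median log2 difference 0.45). The part of smooth muscle, endoderm or epithelial cells in the differences given here was not tested.

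**Figure D4:**
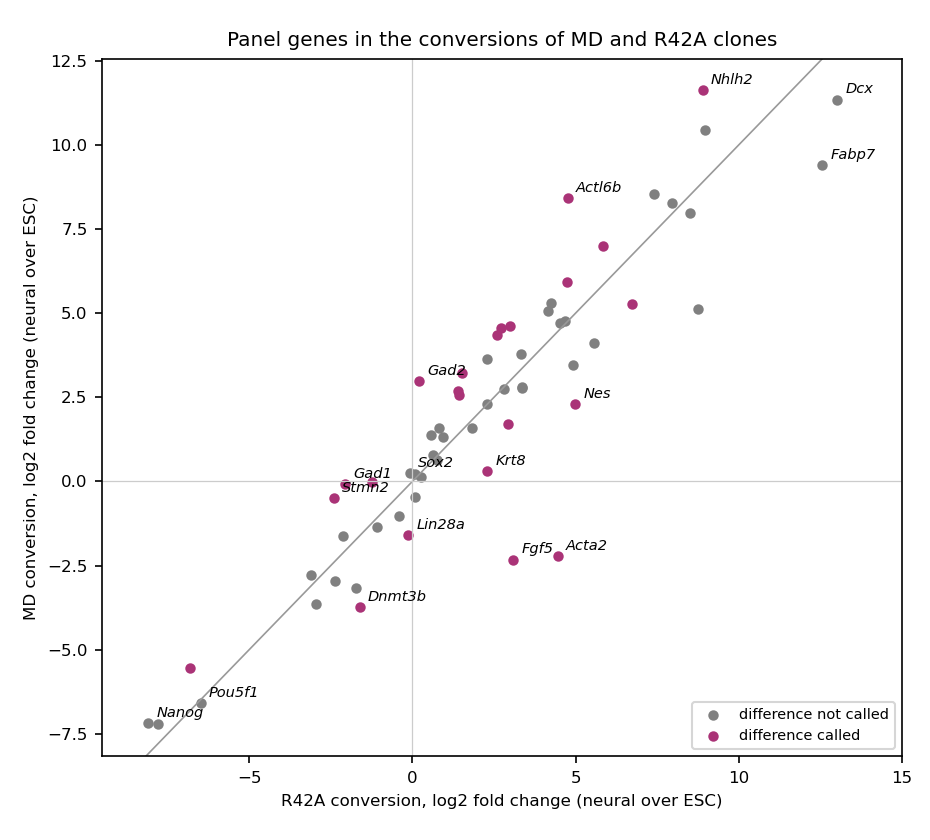
Log2 fold change of neural cultures over ESC for the 62 panel genes in the R42A clones (x axis) and the MD clones (y axis), with the line of equal change; purple points are genes whose difference was called (23), grey points the others. Nhlh2, Actl6b and Gad2 lie above the line and Acta2, Fgf5 and Nes below it.

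The MD clones were compared with each other in a fit of the 10 libraries, with 21359 genes tested. As ESC they differed in 84 genes (0.393%), of which 70 were higher in clone 09 and 14 in clone 30. That count was 37, 38 and 54 without ESC library 1, 2 and 3 of clone 30, 134 without library 3 of clone 09, and 116 with the replicate number as a block, where 84 of the 84 were called again. As neural cultures the labels 09 and 30 differed in 1 gene (0.00468%), Gm49325 (262 genes at an unadjusted p under 0.05; DESeq2 called 2). With the replicate number as a block it was 0, with 439 genes at an unadjusted p under 0.05. Without either neural library of label 30 the count was 0, with 280 and 270 genes at an unadjusted p under 0.05. The change from ESC to neural cultures differed between the clones in 33 genes (0.155%), from 2 to 44 when a library was left out, 68 by DESeq2 and 10 by limma voom. It was 2 without either neural library of label 09 or the second of label 30, 3 without the first of label 30, 5 or 6 without ESC library 2 or 1 of clone 30, 10 without its library 3, and 14 without the first of clone 09.

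Of the 70 higher in clone 09, 54 rose in both clones, and 8 of the 84 belong to the protocadherin clusters, whose genes are alike and can share reads. Of the 84, 68 had at least 1 CPM in neural cultures, and there no ratio between the labels went beyond log2 0.47 in size. Since the 84 were picked by their ratio in ESC, ratios nearer to 0 elsewhere are a description only. Slc17a6 had 1.4 CPM in clone 09 and 0.137 CPM in clone 30 as ESC, and 25.9 and 26.6 CPM as neural cultures (log2 difference of conversions -3.40, adjusted p = 0.00361). Fabp7 had 0.639 CPM in clone 09 and 0.0873 CPM in clone 30 as ESC, and 266 and 250.4 CPM as neural cultures (log2 -3.06, adjusted p = 0.0346). Bmp5, a BMP ligand gene, had 0.269 CPM in clone 09 and 0.0158 CPM in clone 30 as ESC, and 5.62 and 5.42 CPM as neural cultures. In the opposite direction Cacng4, an AMPA receptor partner, had 0.739 CPM in clone 09 and 2.52 CPM in clone 30 as ESC, and 92.7 and 103 CPM as neural cultures (log2 1.64, adjusted p = 0.0113), and Nexmif, an X-linked neuronal gene, had 39.3 CPM in clone 09 and 111 CPM in clone 30 as ESC, and 19.5 and 19.9 CPM as neural cultures. Over all genes the median absolute log2 ratio between the clone labels was 0.0627 in MD ESC and 0.047 in MD neural cultures, and in R42A 0.162 and 0.0404. Whether the neural labels stand for separate cultures of each clone was not tested.

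**Figure D5:**
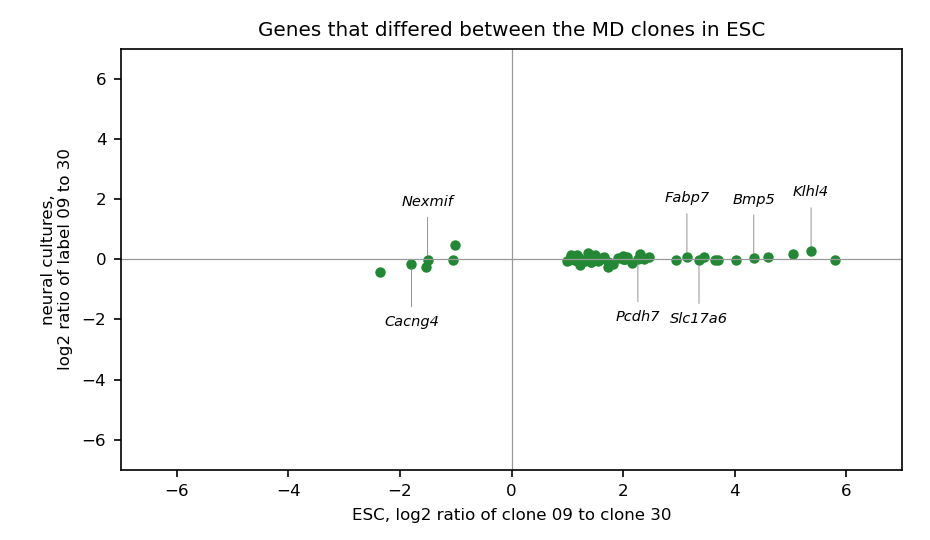
Log2 ratio of clone 09 to clone 30 in ESC (x axis) and of label 09 to label 30 in neural cultures (y axis, same scale) for the 68 genes called between the ESC clones that had at least 1 CPM in neural cultures. The points spread widely along x and stay within log2 0.47 of 0 along y.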

How the data were processed

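Per the labels' protocols, total RNA was extracted with TRIzol and sequenced from KAPA Hyper Prep libraries. The authors deposited expected counts of RSEM for 55573 genes, besides 92 spike-in entries that sum to 0. Tools listed in the submitters' processing notes, without roles, are RSEM 1.3.0, STAR 2.7.1a, Trim Galore 0.60 and DESeq2, with the build mm10; the annotation release and the strand setting are not given in the sources used here. Expected counts share out reads between alike copies, and antisense partners may not be told apart.

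From these, counts were rounded and matched by gene ID to GENCODE M21 (55480 genes, 99.8%). Libraries were summed per clone and stage to 8 sums in 4 groups (MD and R42A, ESC and neural), filtered with filterByExpr (minimum count 10), scaled by TMM and tested with the robust quasi-likelihood test of edgeR 4.0.16 (limma 3.58.1, R 4.3.3), with Benjamini-Hochberg adjustment. CPM values are TMM-scaled. A second fit over the 10 MD libraries compared the clones. DESeq2 1.42.0, limma voom, other scalings, filters, units of replication, a clone block and left-out samples were alternatives. Scripts were tested on simulated data.

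By label both stages share a clone, and whether the neural labels stand for separate cultures was not tested; clone deviations correlated between stages by 0.0254 in MD and -0.112 in R42A. ESC titles number the libraries alike in both MD clones, and same-numbered libraries deviated together from their clone means (correlation 0.287, 0.292 and 0.328), so the number was added as a block to the clone fit after seeing the data.

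The members and the 53 gene lists were chosen with earlier results of these data known. Named are a panel of 62 genes, up to 4 called genes of the largest change and 2 uncalled of the highest level per list, the 12 largest rises and falls outside the lists at 5 CPM or more, 8 differences between genotypes in each direction, up to 6 between clones, and the 10 highest per kilobase; a few that the rule names are not reported here. Promoter and miRNA sequences come from RefSeq tables of GRCm38.p6.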

Additional observations from a re-analysis of the deposited data

Results flagged for a closer look

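Of 119 sets of 4 or 6 libraries of the panel genes, 7 had a library at one end set apart from the rest by Dixon's test, where chance gives about 1 set in 20. In the neural libraries the second of label 30 was low for Neurog2 (24.2 CPM against 26.5 to 27 CPM) and Snap25 (20.2 against 22.2 to 22.5 CPM) and high for Ptbp1 (417 against 392 to 395 CPM), and the first of label 30 was high for Ebf2 (71.2 against 64.4 to 65.3 CPM). In ESC the second library of clone 09 was low for Krt8 (19.3 CPM against 28.6 to 34.1 CPM), the second of clone 30 high for Hoxb9 (0.824 against 0.533 to 0.61 CPM) and the first of clone 09 high for Dll1 (6.61 against 4.47 to 5.02 CPM).

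The MD conversion differed from the R42A conversion in 23 of the 62 panel genes by the test of the difference itself. It was more positive in MD, in log2 units, for Esrrb (1.26), Neurod1 (1.22), Nhlh2 (2.72), Onecut1 (1.16), Stmn2 (1.9), Elavl3 (1.7), Elavl4 (1.64), Snap25 (1.84), Gad1 (1.97), Gad2 (2.77), Hoxb9 (1.13), Smarcd3 (1.27), Actl6b (3.66), Dpf3 (1.76) and Srrm4 (1.2). It was more negative for Fgf5 (-5.4), Dnmt3b (-2.12), Nes (-2.68), Cdh2 (-1.48), Otx2 (-1.2), Krt8 (-2), Acta2 (-6.69) and Lin28a (-1.48). The Krt8 difference was -1.36 without R42A clone A04 and -2.93 without A10. These calls carry the limit given in the report: over all genes such calls numbered 77 without MD clone 09 and 114 without MD clone 30.

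The conversion differed between the clone labels 09 and 30, as log2 of 09 less 30, for Cacng4 (1.64), Nexmif (1.47), Bmp5 (-4.29), Slc17a6 (-3.4), Pcdhb20 (-3.37), Fabp7 (-3.06), Pcdhb18 (-2.96) and Pcdh7 (-2.24). In each of the 8 genes the ESC clones differed and the neural cultures did not pass the test.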

How the results depend on the processing

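All neural libraries are of 1 run and the labels 09 and 30 hardly differ there, which limits the tests of the conversion. Depth limits genes of few counts, such as Dbh (0 and 51 counts); its effect on the counts of calls was not tested. The counts of genes higher and lower stayed within 1.5 times under each alternative but one: without the 2-fold limit 9611 were higher and 9781 lower. Leaving out a clone or library gave 5740 to 6990 higher and 5180 to 6928 lower, and the clone label as replicate block gave 6694 and 6441. Of the calls, 80.7% to 99.4% were shared with the alternatives. The lowest share was against the ESC of the second run, which are of other MD clones (45 and 47).

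The count of differences between MD and R42A was 2030 with the clone label as replicate block (pairing of the stages) and 5472 without the 2-fold limit. It was 0 with the neural libraries of each genotype summed to 1 sample (chosen after seeing the data, as was leaving out single libraries from this fit), and 77 to 3167 over clones and libraries left out. The count between clones was 68 by DESeq2, 10 by limma voom and 72 without the low-count filter, and 2 to 44 with a library left out; that between neural labels was 2 by DESeq2 and 0 to 1 with a library left out. Alternatives for the ESC clones were added after seeing the data: their count was 148 without the 2-fold limit and 37 to 134 with a library left out. With the replicate number within stage as replicate block it was 116, and 47 for the conversion and 0 for the neural labels. The cause was not tested.

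Of 62 panel genes, 52 kept the direction and call of the MD change in all alternatives. The log2 change reversed against the ESC of the second run, of clones 45 and 47, for Sox2 (-0.34), Krt8 (-0.59) and Dpf1 (-0.27). For Neurod1, not called, it reversed with total counts (0.162), with neural libraries summed (0.0406), and with libraries as replicates and the clone label as replicate block (0.0118). It ran from -0.235 to 0.22 with samples left out. For Gad1, not called, it reversed with total counts (0.109) and ran from -0.304 to 0.208. For the difference of the conversions 20 of 62 genes kept both. Its sign depended on the samples left out for Pou5f1 (-0.283 to 0.0299), Ebf2 (-0.236 to 1.39), Syt1 (-0.118 to 0.365), Olig2 (-0.53 to 1.92), Gbx2 (-0.182 to 0.941), Gata6 (-1.61 to 0.136), Phf10 (-0.0326 to 0.306) and Ptbp2 (-0.142 to 0.137). It also reversed for Ptbp2 with DESeq2 (-0.0274) and with libraries as replicates and the clone label as replicate block (-0.000508), and for Cdkn1c with total counts (0.00666). None of these 9 differences was called with all samples; without R42A clone A10 those of Olig2 and Gata6 were.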
